A study of Mus musculus with 7 samples.

Results

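The connexin genes of the mouse examined here are Gja1, Gja4, Gja5, Gjb1, Gjb2, Gjb6, Gjc1, Gjc3 and Gjd2, which were found by symbol in every deposited count table. They are 9 of the 32531 symbols in those tables, and 8 of them, all but Gja5, were among the 17375 genes that passed the filter on low counts. The libraries came from the brain tissue that surrounds the ventricles of adult Dcdc2a-EGFP/Rpl10a mice (line Dcdc2a-TRAP ES2575). In this line the ribosomal protein Rpl10a, fused to EGFP, is made in cells that use the regulatory sequences of Dcdc2a, and antibodies to EGFP pull out the tagged polysomes with the RNA on them. They were 3 libraries of immunopurified RNA (IP, numbers 1, 3 and 4), set against 4 of total RNA (Input, numbers 1 to 4). An IP of number 2 was not analysed here. IP and Input both carry the transgene, so there was no line without it among the libraries. Sex, exact age, and whether a library is 1 animal or a pool are not labelled, so p-values measure the spread between these libraries, which may be technical.

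Connexins are membrane proteins of which several assemble into a hemichannel, and hemichannels of neighbouring cells dock to form the channels of gap junctions, through which ions and small metabolites pass from cell to cell. Each cell type uses its own set: Gja1 (Cx43) and Gjb6 (Cx30) are the connexins of astrocytes and are also found in ependymal cells, Gjb2 (Cx26) is known from leptomeningeal cells, ependymal cells and some astrocytes, Gjb1 (Cx32) and Gjc3 (Cx29) belong to oligodendrocytes and Schwann cells, Gjd2 (Cx36) forms the electrical synapses of neurons, and Gja4 (Cx37), Gja5 (Cx40) and Gjc1 (Cx45) serve vessel walls. Ependymal cells, which line the ventricles and bear motile cilia, are coupled to each other by gap junctions.

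Counts assigned to genes were 42422439 to 52175180 per IP library and 37203427 to 44754345 per Input library, and 3 counts in a library correspond to 0.0585 to 0.0819 counts-per-million (CPM, on edgeR's TMM scale), counting error only. The IP libraries were not alike. Foxj1, which encodes the master transcription factor of motile cilia, had 32.2, 345 and 427 CPM in IP 1, IP 3 and IP 4, against 13.0, 4.34, 9.34 and 6.19 CPM in Inputs 1 to 4. Its log2 fold, IP over Input, was 5.03 ± 0.78 (SE; edgeR adjusted p = 0.0147, or 0.133 with the replicate number as a block). Dcdc2a had 43.6, 411 and 175 CPM in these IP libraries and 27.7, 35.6, 73.9 and 44.2 CPM in the Inputs, with a log2 change of 2.21 ± 0.63 (edgeR adjusted p = 0.0743). IP 1 lay within the Input range for Dcdc2a and far below the other IP libraries for both genes. Each connexin is therefore given below by library, and each tested one also without IP 1. Reads that fell in more than 1 gene made up 1.51% to 2.01% of IP lines and 9.33% to 12.9% of Input lines, and their part in the results was not tested.

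All 9 genes lie apart from each other except for 1 pair. Gjb2 (ENSMUSG00000046352.7, chr14:57098600-57104702, minus strand) and Gjb6 (ENSMUSG00000040055.9, chr14:57123303-57133611, minus strand) are neighbours with 18600 bases between them. Positions are from GENCODE release M21, whose assembly is that of the mm10 build of the files. Gja1 (ENSMUSG00000050953.10) is at chr10:56377330-56402513 on the plus strand, Gjb1 (ENSMUSG00000047797.14) at chrX:101376378-101385629 on the plus strand, and Gjc3 (ENSMUSG00000056966.7) at chr5:137953461-137963098 on the minus strand. Gjd2 (ENSMUSG00000068615.4) is at chr2:114009601-114013619 on the minus strand, Gja4 (ENSMUSG00000050234.7) at chr4:127311421-127314039 on the minus strand, Gja5 (ENSMUSG00000057123.14) at chr3:96904693-97077416 on the plus strand, and Gjc1 (ENSMUSG00000034520.14) at chr11:102799579-102819700 on the minus strand. The coding sequence lies in 1 exon in 7 of them and in 2 exons in Gjc3 and Gjd2. Gjd2 shares 57 exon bases with the antisense model A530058N18Rik and Gja5 shares 165 exon bases with models of the other strand. These are part of 2879 exon bases of Gjd2 and 5746 of Gja5. Because the strand setting of the counting is not given in the sources used here, reads on the shared bases cannot be assigned to a strand.

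The sequences before the start sites of the neighbours Gjb2 and Gjb6 and of Gjc3 are printed because these 3 genes carry the contrasts described below: 1 gene that rose, its neighbour that was not called, and 1 gene that fell. Each line holds the 250 bases before the RefSeq start (build GRCm38.p6), 5′ to 3′ on the strand of the gene. Capitals mark matches, on either strand, to a GC box (GGGCGG) or to the core letters bound by RFX factors (GTTGCC).
Gjb2, chr14:57104703-57104952, minus strand: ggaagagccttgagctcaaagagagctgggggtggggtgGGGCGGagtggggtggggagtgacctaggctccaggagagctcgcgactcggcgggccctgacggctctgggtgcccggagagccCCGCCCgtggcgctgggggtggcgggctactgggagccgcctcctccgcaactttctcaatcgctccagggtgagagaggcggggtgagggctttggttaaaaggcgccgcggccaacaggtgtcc
Gjb6, chr14:57133612-57133861, minus strand: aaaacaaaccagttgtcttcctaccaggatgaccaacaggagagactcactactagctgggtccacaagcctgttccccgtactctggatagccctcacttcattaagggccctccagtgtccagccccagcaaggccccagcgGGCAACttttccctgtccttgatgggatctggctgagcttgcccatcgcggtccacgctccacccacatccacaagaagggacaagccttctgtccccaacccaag
Gjc3, chr5:137963099-137963348, minus strand: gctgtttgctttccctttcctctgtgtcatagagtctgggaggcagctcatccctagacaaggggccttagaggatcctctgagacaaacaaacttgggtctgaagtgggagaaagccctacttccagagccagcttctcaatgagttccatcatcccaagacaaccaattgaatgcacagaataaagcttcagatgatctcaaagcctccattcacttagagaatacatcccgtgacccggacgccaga

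RefSeq windows, each 300 bases long with 50 of them after the start, were found for 8 of the 9 genes, which had 11 windows in all. Gjc1 had no entry. The Gjb2 window stood apart in base composition among the 3 printed ones: 70.0% of its bases were G or C and it held 27 CpG dinucleotides, against 57.3% and 6 in the Gjb6 window and 50.7% and 5 in the Gjc3 window. The median over all 32851 windows was 7. Both GC boxes in capitals belong to Gjb2, a motif found in 35.7% of all windows, and the single RFX match belongs to Gjb6, against 12.5% of all windows. The other letters searched were TATAAA (13.6% of windows), TAAACA of forkhead factors (13.4%), AACAAT of SOX factors (10.7%) and CAGCTG, an E-box (16.3%). None of the 6 motifs was in the Gja1 or Gjc3 window. The first Gjb1 window held an AACAAT, the second a TAAACA, and the fourth a TATAAA and 3 GC boxes. The windows of Gjd2, Gja4 and Gja5 held 1 GC box each, and that of Gja4 also a CAGCTG. These are matches of letters and show no binding.

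Of the 8 connexins tested, 1 rose in IP (Gjb2) and 1 fell (Gjc3) at an edgeR adjusted p under 0.05, with 6 not called. Over all 17375 tested genes 633 rose, or 3.64%, and 376 fell, or 2.16%. By unadjusted p under 0.05, 13.3% of all tested genes were higher and 9.4% lower, by DESeq2 8.14% and 5.61%, and by edgeR without IP 1 12.5% and 9.55%. The fold was positive for 4 connexins and negative for 4, with a median log2 fold of 0.04 for the 8 and 0.06 for all tested genes. Every IP library lay above every Input library for 1 of the 8, against 9.55% of all tested genes, and below for 2 of the 8, Gjc3 and Gjb1, against 10.4%. Leaving out libraries changed the counts: without IP 1 the test called 3 connexins higher (Gja1, Gjb2 and Gjb6) and 1 lower (Gjc3), and without IP 3 it called 0 higher and 1 lower. Without IP 4 or without any single Input it called 0 in either direction. The counts over all genes moved as much: 2259 were called higher and 1724 lower without IP 1, 343 and 357 without IP 3, 10 and 19 without IP 4, 21 and 30 without Input 1, 12 and 24 without Input 2, 4 and 16 without Input 3, and 4 and 19 without Input 4.

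**Figure D1:**
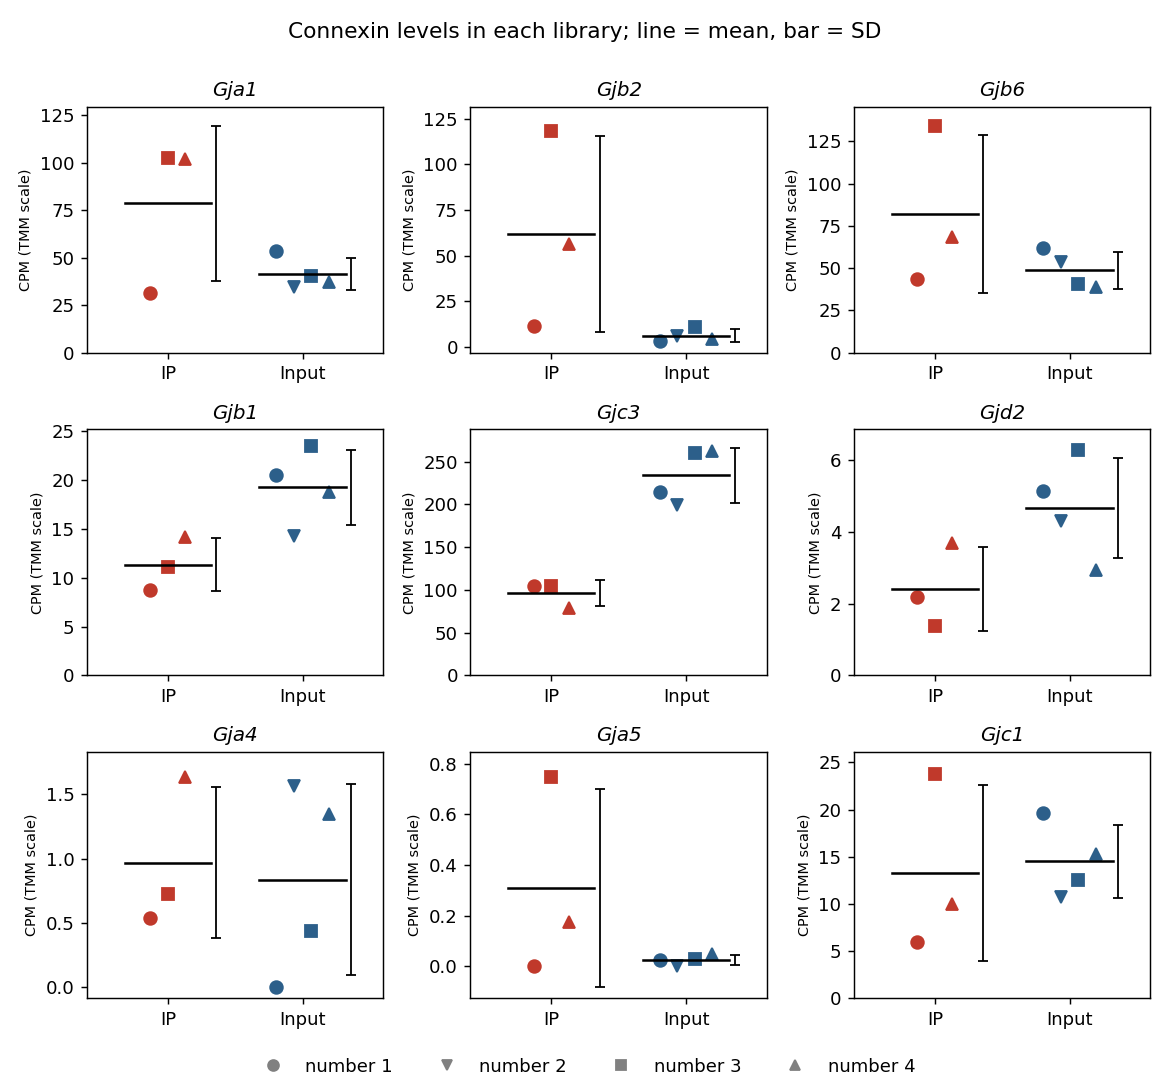
Level of each of the 9 connexins in every library, in CPM on the TMM scale, with IP to the left of Input. Points are libraries with the shape giving the replicate number, the horizontal line is the mean and the vertical bar the SD over 3 IP or 4 Input libraries. Gjb2 in IP 3 and IP 4 stands far above the Inputs, all 3 IP points of Gjc3 lie below all 4 Input points, and IP 1 is the lowest IP point of Gja1, Gjb2 and Gjb6.

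Among the connexins of astrocytes and ependymal cells, Gjb2 rose, with the largest log2 fold of the 8 tested. It had 11.2, 118 and 56.5 CPM in IP 1, IP 3 and IP 4, against 3.11, 5.81, 11 and 4.10 CPM in Inputs 1 to 4. The groups did not overlap, but IP 1 and Input 3 were almost level, and IP 3 was the highest by far. The counts behind these values were 560, 5369 and 2898 in IP and 127, 260, 404 and 167 in Input. The mean was 62.0 ± 53.7 CPM in IP (SD, n = 3) and 6.01 ± 3.52 CPM in Input (SD, n = 4), and the log2 fold was 3.37 ± 0.72 (SE; edgeR adjusted p = 0.033). Against the Input on the same sequencing lane the log2 ratio was 1.83 for IP 1, 3.42 for IP 3 and 3.77 for IP 4, so the gene was higher in 3 of 3 pairs. The call depended on the libraries used. It was kept without IP 1 (log2 fold 3.86, edgeR adjusted p = 6.77e-05) and lost without each other library: the adjusted p was 0.0616 without IP 3, 0.0822 without IP 4, 0.0902 without Input 1, 0.0924 without Input 2, 0.0681 without Input 3 and 0.0948 without Input 4. With no filter on low counts it was 0.0616. The log2 fold over all these settings was 2.49 to 3.86.

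Markers of ependymal, leptomeningeal and vessel wall cells moved with Gjb2. The summed level of the 16 ependymal markers was 313, 4118 and 3276 CPM in the IP libraries and 51.7, 45.0, 76.6 and 71.2 CPM in the Inputs. That of the 15 leptomeningeal fibroblast markers was 132, 1072 and 556 CPM in IP and 53.5, 46.6, 74.7 and 37.5 CPM in Input. The 15 mural cell markers of vessel walls summed to 73.6, 899 and 394 CPM in IP and to 51.7, 54.6, 59.7 and 38.6 CPM in Input. Like Gjb2, these 3 sums, and that of the endothelial markers given with the vascular connexins, were highest in IP 3, lowest among the IP libraries in IP 1, and among the Inputs highest in Input 3. Of the ependymal markers 15 rose and 0 fell, with a median log2 fold of 5.50, and of the leptomeningeal ones 11 rose and 0 fell, with a median of 3.56. These counts were 15 and 14 without IP 1, 14 and 3 without IP 3, 2 and 0 without IP 4, 4 and 2 without Input 1, 1 and 0 without Input 2, and 0 and 0 without Input 3 or Input 4. With the replicate block they were 8 and 3. Of all tested genes, 3.64% rose with all libraries and 12.5% without IP 1. The 2 most abundant ependymal markers, Rsph1 and Ccdc153, had log2 folds of 5.51 ± 0.77 and 6.20 ± 0.78 (SE; edgeR adjusted p = 0.0129 and 0.0108). The 2 most abundant leptomeningeal markers, the matrix proteoglycan gene Dcn and the retinoic acid enzyme gene Aldh1a2, had 3.68 ± 0.77 and 4.27 ± 0.63 (edgeR adjusted p = 0.0312 and 0.0129). With the replicate block Ccdc153 and Dcn were not called (edgeR adjusted p = 0.0654 and 0.162), while Rsph1 and Aldh1a2 were. The part of any of these cell types in the Gjb2 level was not tested. In the Inputs, which are whole-tissue RNA, more cells of a type and more RNA per cell cannot be told apart. A fold of IP over Input also cannot tell RNA of tagged cells from RNA of other cells carried into the IP. That limit holds for every comparison here.

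The genes whose profile over the 7 libraries was most like that of Gjb2 were Lum, Maats1 and Rgs22. Likeness was the root mean square difference of log2 CPM, each gene centred on its own mean, over 11178 other tested genes with a mean of at least 5 CPM and a proper name. The closest was Lum, which encodes the matrix proteoglycan lumican and is on the leptomeningeal list, at 0.25. It had 3.92, 44.0 and 32.5 CPM in IP 1, IP 3 and IP 4, against 1.01, 2.08, 4.26 and 1.74 CPM in Inputs 1 to 4, with a log2 change of 3.56 ± 0.76 (SE; edgeR adjusted p = 0.0293, or 0.0654 and not called with the replicate block). Maats1, a gene of motile cilia, followed at 0.31 and Rgs22 at 0.36.

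**Figure D2:**
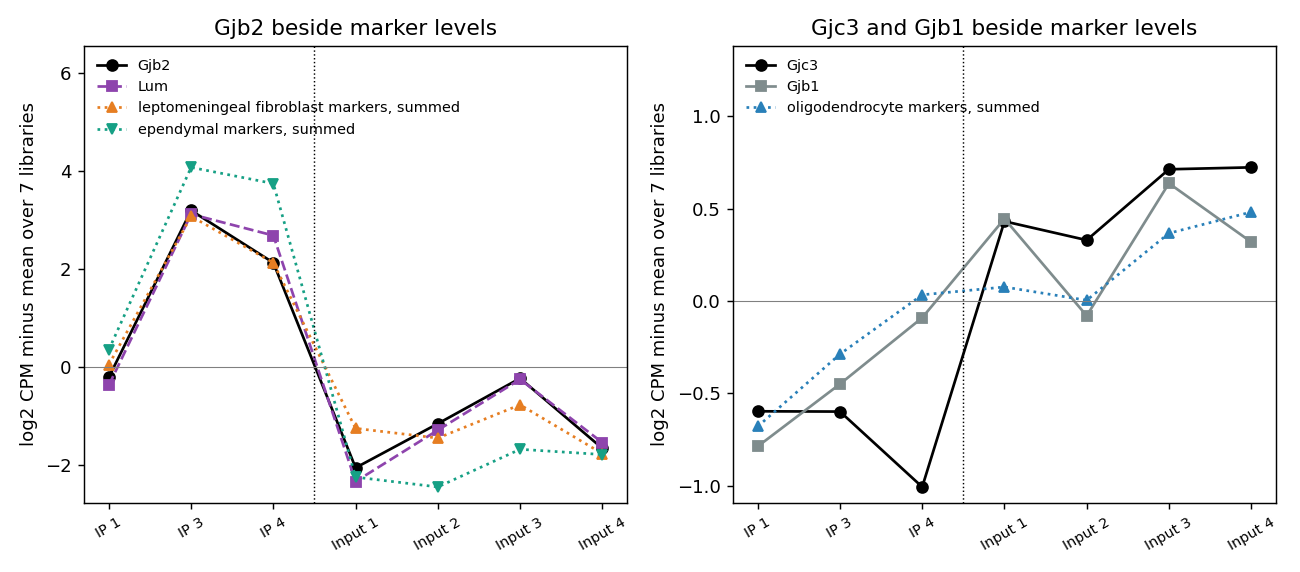
Left, log2 CPM of Gjb2, of Lum and of the summed leptomeningeal and ependymal markers in each library, each line centred on its mean over the 7 libraries. Right, the same for Gjc3, Gjb1 and the summed oligodendrocyte markers. IP libraries are left of the dotted line and Inputs right of it, and lines join libraries only to guide the eye. Gjb2, Lum and the leptomeningeal sum run close together, and Gjc3 is lowest in IP 4 where the oligodendrocyte markers are near their mean.

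Gja1 and Gjb6, the main astrocyte connexins, were high in 2 of the 3 IP libraries. Gja1 had 31.6, 102 and 102 CPM in IP 1, IP 3 and IP 4, against 53.5, 34.8, 40.3 and 37.3 CPM in Inputs 1 to 4. IP 3 and IP 4 lay above all Inputs and IP 1 below all of them, so the groups overlapped. Its log2 fold was 0.92 ± 0.37 (SE) and was not called (edgeR adjusted p = 0.173). Gjb6 had 43.8, 134 and 68.3 CPM in the IP libraries and 62.1, 53.5, 40.6 and 38.7 CPM in the Inputs. Here too IP 3 and IP 4 were above all Inputs, while IP 1 lay inside their range. The log2 fold was 0.75 ± 0.35 (edgeR adjusted p = 0.24). Without IP 1 both were called, Gja1 at 1.30 on the log2 scale (edgeR adjusted p = 0.000478) and Gjb6 with 1.05 (edgeR adjusted p = 0.01). Within lanes, the log2 ratio of Gja1 was −0.76 for IP 1, 1.34 for IP 3 and 1.45 for IP 4. That of Gjb6 was −0.50, 1.72 and 0.82 in the same libraries, so the lane of IP 1 ran against the others for both genes.

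Astrocyte markers had smaller folds than the ependymal ones. Of 16 tested, 3 rose and 0 fell, with a median log2 fold of 0.50. Among those that rose were the filament gene Gfap (1.10 ± 0.25) and the membrane protein gene Mlc1 (1.71 ± 0.35), with edgeR adjusted p = 0.0358 and 0.0249, singled out after their values were seen. Without IP 1 the list had 7 called higher and 1 lower (all tested genes: 12.5% higher and 9.55% lower). Without any other single library, or with the replicate block, 0 were called. The most abundant marker, the glutamate transporter gene Slc1a2, had a log2 fold of −0.60 ± 0.20 (edgeR adjusted p = 0.116), and the second, the glycolytic gene Aldoc, had 0.18 ± 0.26 (edgeR adjusted p = 0.748). The summed astrocyte level was 3010, 4349 and 4591 CPM in IP 1, IP 3 and IP 4, against 3633 to 3977 CPM in the Inputs. Its lowest value was in IP 1, as for Gja1. The sum leans on 1 gene, Slc1a2, which had 1040, 1466 and 1808 CPM in IP and 2099 to 2322 CPM in Input. Its fold was negative, while 12 of the 16 markers had a positive one. The part of astrocyte RNA in the Gja1 and Gjb6 levels was not tested. The profiles most like Gja1 were those of Sparc, a matricellular protein gene, at 0.15, Mid1ip1 at 0.15 and Tctn2, a gene of the transition zone of cilia, at 0.16. Those most like Gjb6 were Cfap20, a gene of cilia, at 0.14, Mettl7a1 at 0.16 and Pigv at 0.17.

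The 3 genes were also compared with each other inside each library, where no scaling between libraries enters. The log2 ratio of Gjb2 to Gjb6, per kb of exon, was −2.15, −0.37 and −0.47 in IP 1, IP 3 and IP 4, against −4.49, −3.39, −2.07 and −3.41 in Inputs 1 to 4. At these exon lengths Gjb2 lay below its neighbour in all 7 libraries, though another choice of length would move all 7 ratios by the same amount. The groups overlapped, since IP 1 was below Input 3. The IP minus Input difference was 2.34 (exact two-sided permutation test over libraries, p = 0.0857, adjusted p = 0.214 over 5 pairs). For Gjb2 to Gja1 the ratio was −1.14, 0.56 and −0.50 in IP and −3.73, −2.22, −1.51 and −2.82 in Input. Every IP value lay above every Input value. The difference was 2.21 (exact permutation p = 0.0571, adjusted p = 0.214), and with 35 ways to label the libraries the smallest p possible is 0.0286. The ratio of Gjb6 to Gja1 averaged 0.64 ± 0.58 in IP and 0.77 ± 0.28 in Input (SD, n = 3 and 4), a difference of −0.13 (exact permutation p = 0.771, adjusted p = 0.771). No pair passed at 0.05, and for Gjb6 to Gja1 leaving out 1 library in turn moved the difference between −0.32 and 0.20.

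**Figure D3:**
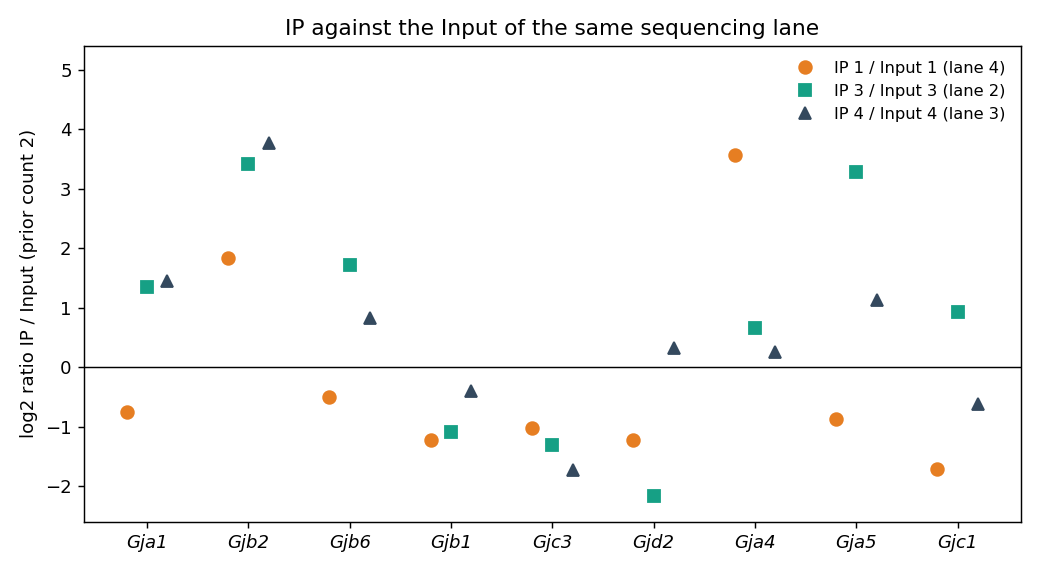
Log2 ratio of each IP library to the Input sequenced on the same lane, for each connexin, with a prior count of 2. Points above the horizontal line at 0 are higher in IP. Gjb2 is above the line and Gjc3 and Gjb1 below it in all 3 lanes, while Gja1 and Gjb6 are below it in lane 4 and above it in lanes 2 and 3. The lane 4 point of Gja4 rests on an Input with 0 counts.

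Genes next to the Gjb2 and Gjb6 pair on chromosome 14 gave no second call. Zmym2, a zinc finger gene, lies 135898 bases from the pair and had a log2 fold of 0.13 ± 0.20 (edgeR adjusted p = 0.766). Cryl1, a crystallin-related enzyme gene, lies 141381 bases from it and had 0.37 ± 0.36 (edgeR adjusted p = 0.608). Ift88, a gene of intraflagellar transport in cilia, lies 290450 bases away. It had 34.8, 56.8 and 48.2 CPM in the IP libraries and 15.3, 25.7, 19.96 and 28.2 CPM in the Inputs, without overlap, and its log2 fold was 1.06 ± 0.29 (edgeR adjusted p = 0.0591). Gja3 (Cx46), a connexin known from the lens, lies nearest of these, 40499 bases from Gjb2. It had 0 counts in all 3 IP libraries and in Input 1, against 30, 76 and 14 counts in Inputs 2, 3 and 4. A count of 0 allows up to 0.0661 CPM in an IP library, and the gene was not called (edgeR adjusted p = 0.11).

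Of the connexins of oligodendrocytes, Gjc3 fell. It had 105, 105 and 79.0 CPM in IP 1, IP 3 and IP 4, against 214, 200, 260 and 262 CPM in Inputs 1 to 4. Every IP library lay far below every Input, and IP 1 was no exception. The mean was 96.3 ± 14.9 CPM in IP (SD, n = 3) and 234 ± 32 CPM in Input (SD, n = 4), and the log2 fold was −1.28 ± 0.20 (SE; edgeR adjusted p = 0.0129). Within lanes the log2 ratio of Gjc3 was −1.03 for IP 1, −1.31 for IP 3 and −1.73 for IP 4. With the replicate number as a block the log2 fold was −1.36 and the call was lost (edgeR adjusted p = 0.0682). It was kept without IP 1 (edgeR adjusted p = 0.000133) and without IP 3 (0.0225), and lost without IP 4 (0.056), Input 1 (0.0556), Input 2 (0.0537), Input 3 (0.0584) and Input 4 (0.0518), with log2 folds of −1.36 to −1.16 throughout.

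Gjb1, the connexin that couples oligodendrocytes to each other and to astrocytes, had 8.75, 11.1 and 14.2 CPM in IP 1, IP 3 and IP 4, against 20.6, 14.3, 23.5 and 18.8 CPM in Inputs 1 to 4. All IP libraries were below all Inputs, though IP 4 and Input 2 were nearly level. The log2 fold of −0.77 ± 0.32 (SE) was not called (edgeR adjusted p = 0.19), nor was it under any other setting. Without IP 1 it was −0.61 (edgeR adjusted p = 0.22). The log2 ratio of Gjb1 to Gjc3 per kb averaged −1.87 ± 0.57 in IP and −2.38 ± 0.22 in Input (SD, n = 3 and 4), a difference of 0.51 (exact permutation p = 0.143, adjusted p = 0.238 over 5 pairs).

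The 16 oligodendrocyte markers had a median log2 fold of −0.49, with 3 positive folds, 0 called higher and 2 lower. With an unadjusted p under 0.05, 1 was higher and 7 lower (all tested genes: 13.3% higher and 9.4% lower). The 1 higher was the myelin gene Mag (0.76 ± 0.25, edgeR adjusted p = 0.109). The 2 called lower are also myelin genes, Mbp (−0.74 ± 0.19, edgeR adjusted p = 0.0468) and Mobp (−1.17 ± 0.28, edgeR adjusted p = 0.0406). Mag and Mobp were singled out after their values were seen. Without IP 1 the test called 7 lower (all tested genes: 9.55% lower). Without IP 3 it called 1, and without any other single library or with the replicate block it called 0. The summed level was 3595, 4716 and 5891 CPM in IP 1, IP 3 and IP 4, against 6067, 5772, 7422 and 8037 CPM in Inputs 1 to 4. IP 4, the lowest library for Gjc3, had the highest marker sum of the IP libraries, within the range of the Inputs, and IP 1 had the lowest. The part of oligodendrocyte RNA in the Gjc3 and Gjb1 levels was not tested. Closest to Gjc3 over the 7 libraries were Ogfrl1 at 0.08, Pcf11, a gene of transcription termination, at 0.13 and Fut9, a fucosyltransferase gene, at 0.14. Closest to Gjb1 were Bivm at 0.13, Strn, which encodes striatin, at 0.14 and Glce, an enzyme gene of heparan sulfate, at 0.15.

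The neuronal connexin Gjd2 was low and not called. It had 2.18, 1.37 and 3.69 CPM in IP 1, IP 3 and IP 4, against 5.15, 4.31, 6.28 and 2.95 CPM in Inputs 1 to 4. The groups overlapped, since IP 4 lay above Input 4. The log2 fold was −0.95 ± 0.60 (SE; edgeR adjusted p = 0.396), and −0.89 without IP 1 (edgeR adjusted p = 0.408). The 15 neuron markers had a median log2 fold of −0.29 with 0 called, also 0 by DESeq2. With an unadjusted p under 0.05, 2 were higher and 3 lower (all tested genes: 13.3% higher and 9.4% lower). Without IP 1, 3 were called lower (all tested genes: 9.55% lower). The 2 most abundant neuron markers, the synaptic gene Snap25 and the kinase gene Camk2a, had log2 folds of −0.48 ± 0.18 and 0.68 ± 0.36 (edgeR adjusted p = 0.15 and 0.302). The summed neuron level was 13110, 10166 and 9746 CPM in IP 1, IP 3 and IP 4 and 12021 to 14614 CPM in the Inputs. IP 1 lay within the Input range, but its sum leans on Camk2a. That gene had 3560, 1062 and 1415 CPM in IP 1, IP 3 and IP 4, against 1094 to 1453 CPM in the Inputs. Snap25 had 6026, 6178 and 4683 CPM in IP, each below the Inputs at 6993 to 9241 CPM. The profiles most like Gjd2 were those of Cbln4, a synaptic organiser gene, at 0.20, the peptide gene Apln at 0.26 and Tmem42 at 0.27.

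The vascular connexins Gja4 and Gja5 were near the limit of detection and Gjc1 was not. Gja4 had 27, 33 and 84 counts in IP 1, IP 3 and IP 4, or 0.541, 0.727 and 1.64 CPM. In Inputs 1 to 4 it had 0, 70, 16 and 55 counts, or 0, 1.56, 0.437 and 1.35 CPM, and 0 counts in Input 1 allows up to 0.0736 CPM. The groups overlapped throughout, with a log2 change of 0.21 ± 1.37 (SE; edgeR adjusted p = 0.95) that turned negative without IP 4 (−0.40), without Input 1 (−0.21) and without Input 3 (−0.01), and was 1.72 with the replicate block (edgeR adjusted p = 0.684). Without IP 1 the log2 change of Gja4 was 0.49 (edgeR adjusted p = 0.855). Gja5 had 0, 34 and 9 counts in the IP libraries, 43 in all, and 1, 0, 1 and 2 counts in the Inputs, 4 in all. Its IP counts came mostly from IP 3, at 0.749 CPM. The gene did not pass the filter, and with no filter its log2 fold was 3.48 ± 2.01 (edgeR adjusted p = 0.355). Gjc1 had 5.93, 23.8 and 10.01 CPM in IP and 19.6, 10.7, 12.5 and 15.3 CPM in Input. IP 3 was the highest and IP 1 the lowest of all 7 libraries, and the log2 fold of −0.13 ± 0.47 (edgeR adjusted p = 0.903) turned positive without IP 1 (0.22), without IP 4 (0.03) and without Input 1 (0.04), and was −0.48 with the block (edgeR adjusted p = 0.722). The log2 ratio of Gja5 to Gja4 differed by 0.49 (exact permutation p = 0.771, adjusted p = 0.771 over 5 pairs), and by −0.66 without IP 3 and −0.32 without Input 2.

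Marker lists of vessels were uneven across the same libraries. The summed level of 16 endothelial markers was 33.1, 125 and 54.8 CPM in IP 1, IP 3 and IP 4, against 29.3 to 41.7 CPM in the Inputs. That of 15 mural cell markers was 73.6, 899 and 394 CPM in IP and 38.6 to 59.7 CPM in Input. IP 3, the library with the most Gja5 and Gjc1, was the highest in both sums, and IP 1 lay within the Input range of the endothelial one. Of 15 endothelial markers tested, 1 rose, Cdh5, an adhesion gene of these cells (3.66 ± 0.84, edgeR adjusted p = 0.0356), named after its value was seen. The median was 0.08. The 2 most abundant, Itm2a and the lipid transporter gene Mfsd2a, had 2.72 ± 0.70 and −0.29 ± 0.44 (edgeR adjusted p = 0.0523 and 0.753). Of the 15 mural markers 4 rose and 0 fell, with a median of 2.56: the smooth muscle actin gene Acta2 (4.14 ± 0.82), the vitronectin gene Vtn (4.51 ± 0.78) and, named after their values were seen, the smooth muscle genes Tagln (3.24 ± 0.73) and Cnn1 (5.17 ± 1.30), with edgeR adjusted p = 0.0262, 0.0185, 0.0341 and 0.0455. Without IP 1 the calls were 3 endothelial and 10 mural, all higher (all tested genes: 12.5% higher). Without IP 3 they were 0 and 1, and without any other single library or with the replicate block they were 0 and 0. Of 6 arterial markers 3 were tested and 0 called (also 0 with an unadjusted p under 0.05 and by DESeq2, and 1 higher without IP 1), with a median of −0.34. The most abundant of them, the ephrin gene Efnb2, had −0.34 ± 0.29 (edgeR adjusted p = 0.56), and Bmx, an arterial kinase gene that did not pass the filter, had 0, 7.53 and 4.66 CPM in IP and 0, 0.134, 0 and 0 CPM in Input, with its counts in the same IP libraries as those of Gja5. Not all arterial markers had their counts there, as genes named after their values were seen show. Sox17, a transcription factor gene that was tested and not called, had 27, 0 and 1 counts in IP and 13, 119, 5 and 5 counts in Input. Gkn3 and Sema3g, which did not pass the filter, had 0 counts in IP 3 and at most 9 in any library. The part of vessel cells in these levels was not tested. Closest to Gjc1 were Pgbd1 at 0.17, Ier3 at 0.18 and Nqo2 at 0.19, and the closest to Gja4, at 0.80 or more, was Cd44, ahead of Gtf2f2 (0.91) and Cdk2ap2 (0.95).

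To compare levels between the genes, CPM was divided by exon length, taken from the transcripts that GENCODE pairs with a RefSeq mRNA (1685 bases for Gja4 to 4002 for Gjc3). In IP the order of mean levels was Gjb6 (39.0 ± 22.2 CPM per kb, SD, n = 3), Gjb2 (25.8 ± 22.3), Gja1 (25.6 ± 13.2) and Gjc3 (24.1 ± 3.73), and the ranges of these 4 overlapped from each to the next. Gjb1 (6.64 ± 1.6) and Gjc1 (4.87 ± 3.44) followed, apart from Gjc3 but overlapping each other. Gjd2 (0.838 ± 0.409), Gja4 (0.575 ± 0.349) and Gja5 (0.0991 ± 0.126) came last, of which Gjd2 and Gja4 overlapped. In Input the order began with Gjc3 (58.5 ± 7.99 CPM per kb, SD, n = 4), apart from Gjb6 (23.1 ± 5.26), which was apart from Gja1 (13.5 ± 2.71). The ranges of Gja1 and Gjb1 (11.3 ± 2.25) overlapped, as did those of Gjc1 (5.34 ± 1.43) and Gjb2 (2.5 ± 1.46) and of Gjb2 and Gjd2 (1.62 ± 0.488). Gja4 (0.497 ± 0.441) and Gja5 (0.00812 ± 0.00647) were lowest. By rank on this length, Gjb2 moved most: it was the second of the 9 by mean level in IP and the sixth in Input. The order depends on the length used. By mean CPM not divided by length, Gjc3 was the highest in IP (96.3 CPM), ahead of Gjb6 (82.0), Gja1 (78.6) and Gjb2 (62.0). The 9 together had 70.4, 189 and 123 CPM per kb in IP 1, IP 3 and IP 4, against 123, 104, 123 and 116 in Inputs 1 to 4, so their total was far above the Inputs in IP 3, level with the highest Inputs in IP 4 and below every Input in IP 1.

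The make-up of that total differed between the groups, with more from the astrocytic and ependymal connexins and less from the oligodendrocytic ones in every IP library than in any Input. Gja1, Gjb2 and Gjb6 together made up 50.8%, 77.4% and 72.4% of the summed connexin counts per kb in IP 1, IP 3 and IP 4, against 39.3%, 37.7%, 30.1% and 27.7% in Inputs 1 to 4. The groups did not overlap, and IP 1 stood nearest to the Inputs. Gjc3 and Gjb1 together made up 44.6%, 17.3% and 22.8% in IP and 53.4%, 56.1%, 64.1% and 65.9% in Input, again without overlap. Gjb2 alone made up 6.62%, 26.0% and 19.1% in IP and 1.05%, 2.33%, 3.73% and 1.47% in Input. Gjc3 alone made up 37.3%, 13.9% and 16% in IP and 43.6%, 48.1%, 52.9% and 56.4% in Input. The vascular connexins averaged 4.12% ± 0.764 in IP and 5.02% ± 0.866 in Input (SD, n = 3 and 4), and Gjd2 averaged 0.789% ± 0.47 in IP and 1.39% ± 0.372 in Input. Both of these overlapped. Shares of 1 total move together, so a larger share of 1 gene lowers the others, and no test was made of them.

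**Figure D4:**
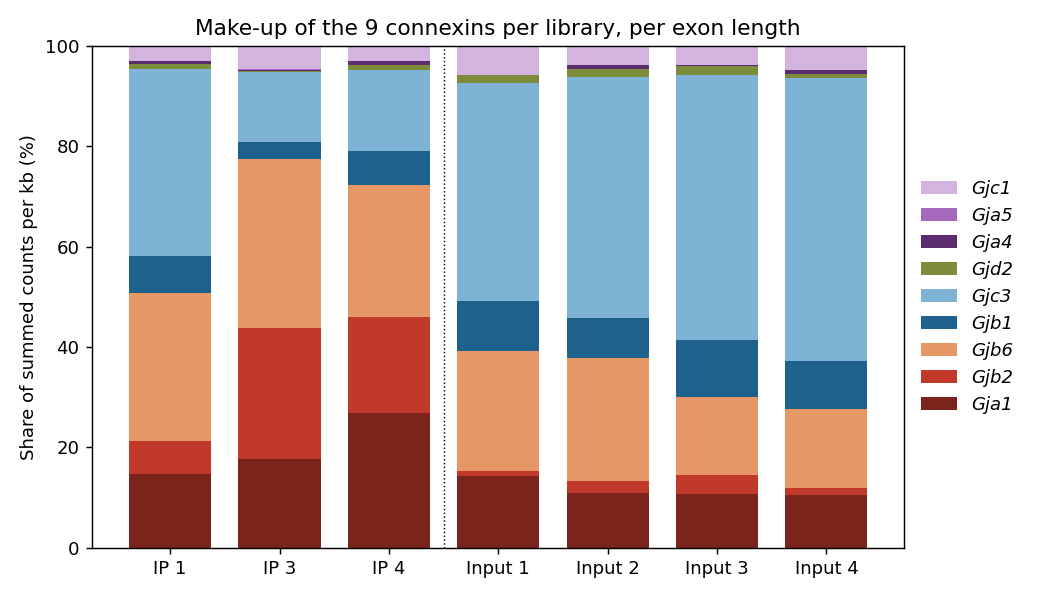
Share of each connexin in the summed counts per kb of exon of the 9 genes, in percent, for every library, with IP to the left of the dotted line and Input to its right. Each bar adds up to the whole. The red and orange blocks (Gja1, Gjb2 and Gjb6) fill 50.8% to 77.4% of the IP bars and 27.7% to 39.3% of the Input bars, and the blue blocks (Gjb1 and Gjc3) shrink to match.

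Other genes of gap junctions and of the proteins around them showed few calls. Of 11 other connexins, 2 passed the filter and 0 were called (0 higher and 1 lower, Gja3, with an unadjusted p under 0.05 and by DESeq2), and 3 had 0 counts in every library. Of 3 pannexins, which form channels related to hemichannels, 2 were tested and 0 were called, also with an unadjusted p under 0.05 and by DESeq2. Panx2 had 182, 33.6 and 44.3 CPM in IP 1, IP 3 and IP 4, against 52.5, 61.0, 49.9 and 42.7 CPM in Inputs 1 to 4, with a log2 change of 0.75 ± 0.51 (SE; edgeR adjusted p = 0.438). Only IP 1 was above the Inputs. Panx1 had a log2 fold of −0.16 ± 0.38 (edgeR adjusted p = 0.854).

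The 13 scaffold and adhesion partners of connexins had 10 positive folds and a median log2 fold of 0.61, against 0.06 for all tested genes. By edgeR 0 were called, against 7 higher and 0 lower with an unadjusted p under 0.05 (all tested genes: 13.3% higher and 9.4% lower). DESeq2 called 2 higher (all tested genes: 8.14%). The edgeR test called 3 partners higher without IP 1 (all tested genes: 12.5%) and 1 without IP 3. Their summed level was 1373, 1361 and 1387 CPM in IP and 940, 1036, 967 and 960 CPM in Input, without overlap and with IP 1 at the level of the other IP libraries. Ctnnb1, which encodes beta-catenin, had 562, 463 and 459 CPM in IP and 324, 382, 367 and 341 CPM in Input, with a log2 change of 0.48 ± 0.17 (edgeR adjusted p = 0.121). Mapre1, a microtubule tip gene, had −0.40 ± 0.26 (edgeR adjusted p = 0.411). Tjp1, which encodes the scaffold ZO-1 that binds Gja1 protein, was chosen after its values were seen. It had 215, 135 and 111 CPM in IP, each above the Inputs at 97.2, 103, 83.5 and 109 CPM, with a log2 change of 0.65 ± 0.24 (edgeR adjusted p = 0.145). Ezr, which encodes the membrane linker ezrin and was also chosen after its values were seen, had 22.2, 116 and 99.0 CPM in IP and 11, 29.9, 15.2 and 21 CPM in Input. IP 1 lay within the Input range, and the log2 fold was 2.04 ± 0.53 (edgeR adjusted p = 0.0526).

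The 16 genes of connexin phosphorylation, trafficking and turnover had a median log2 fold of 0.15 and 0 calls. With an unadjusted p under 0.05, by DESeq2 and without IP 1, 2 were higher and 1 lower, and 1 was called without IP 3. Of all tested genes, 13.3% were higher and 9.4% lower by unadjusted p, 8.14% and 5.61% by DESeq2, and 12.5% and 9.55% without IP 1. The ubiquitin ligase gene Nedd4, known to act on Gja1 protein, had 0.35 ± 0.16 (SE; edgeR adjusted p = 0.242). Of 6 glial membrane partners 0 were called, also with an unadjusted p under 0.05 and by DESeq2, with a median of 0.37, and 2 were called higher without IP 1. The potassium channel gene Kcnj10 had 0.07 ± 0.25 and the dystroglycan gene Dag1 had 0.42 ± 0.23 (edgeR adjusted p = 0.902 and 0.323). Of 14 choroid plexus markers and 12 microglial markers 0 were called, with medians of 0.29 and −0.22. With an unadjusted p under 0.05, 2 choroid plexus markers were higher and 0 lower, and 1 microglial marker was higher and 1 lower. At that threshold 13.3% of all tested genes were higher and 9.4% lower. DESeq2 called 0 of either. Without IP 1, 3 choroid plexus markers were called higher and 0 microglial ones (all tested genes: 12.5% higher). The choroid plexus markers Ttr and Kl had −0.42 ± 0.32 and 0.57 ± 0.23, and the microglial marker Ctss had −0.18 ± 0.30, with edgeR adjusted p = 0.49, 0.177 and 0.785.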

How the data were processed

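The authors deposited raw counts for each gene symbol, without normalisation, as 1 table for each library. The tools named in the submitters' processing notes are STAR 2.0.0e and HTSeq, with build mm10. The annotation, the strand setting and the kit were not given in the sources used here. Lines for reads in no gene, in several genes or aligned to several places (40.1% to 52.1% per library) stayed out of library sizes and tests.

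The low-count filter was filterByExpr (edgeR 4.0.16, run in R 4.3.3) at a minimum count of 10 and a minimum total of 15, and libraries were scaled with TMM. IP was compared with Input by edgeR's quasi-likelihood test with group as the only term, adjusted by Benjamini-Hochberg over all tested genes at 0.05. The procedure was tested on simulated data. Alternatives were RLE factors, total counts, no filter, a replicate block, DESeq2 1.42.0, leaving out each library, other prior counts and other length scales. Pair ratios used a prior count of 2 and exact permutation of 35 labellings.

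The numbers were treated as pairing libraries because the labels put the IP and the Input of numbers 1, 3 and 4 on lanes 4, 2 and 3; whether a number marks an animal is not labelled. Deviations of same-numbered libraries correlated across genes at 0.0313, 0.045 and 0.0243, each the highest for its IP. No 2 libraries agreed within sampling noise.

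The members and lists were chosen with earlier results of these data known. Named genes were the 9 members, Dcdc2a and Foxj1, the genes of each gap junction list that were called or had the 2 highest mean CPM, the 2 most abundant markers of each cell type, and the 3 profiles most like each tested member; any other gene is marked in the text as picked afterwards. Some genes that this rule takes are not reported here.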

Additional observations from a re-analysis of the deposited data

How the results depend on the processing

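Over the alternatives to scaling, filter and test, 633 genes higher and 376 lower in IP became 92 and 29 with the replicate block and 1396 and 962 with DESeq2, and leaving out 1 library gave 4 to 2259 higher and 16 to 1724 lower. RLE factors and total counts moved the median log2 fold of all genes by −0.00424 and 0.0409. Connexins called higher numbered 0 with no filter and 0 to 3 when 1 library was left out, and connexins called lower numbered 0 with the replicate block and 0 to 1 when 1 library was left out. With the block, Gjc3 was at −1.36 (edgeR adjusted p = 0.0682), the only connexin whose call the block changed, and Gjb2 stayed called at 3.03 (edgeR adjusted p = 0.0458). Gjb2 was at 3.36 with no filter (edgeR adjusted p = 0.0616). Leaving out 1 library gave log2 folds of 0.683 to 1.30 for Gja1, 2.49 to 3.86 for Gjb2, 0.194 to 1.05 for Gjb6, −1.36 to −1.16 for Gjc3, −0.402 to 0.695 for Gja4 and −0.874 to 0.216 for Gjc1; Gja1 and Gjb6 were called only without IP 1. Gja4 turned negative at −0.402, −0.212 and −0.00883 without IP 4, Input 1 and Input 3, and Gjc1 turned positive at 0.216, 0.0337 and 0.0401 without IP 1, IP 4 and Input 1. The ratio of Gjb6 to Gja1 ranged from −0.318 to 0.204 and that of Gja5 to Gja4 from −0.662 to 1.6; both changed sign with the block, to 0.00155 and −0.317, the values also found without Input 2. Gjb1 and Gjd2 kept their sign and stayed uncalled under every alternative. So did the signs of the IP minus Input differences in share of the connexin total, also per kb of all annotated exons, a length chosen after seeing the data. Leaving out 1 library gave 27.9 to 41.2 percentage points for the astrocytic and ependymal connexins and −39.8 to −26.2 for the oligodendrocytic ones. The vascular difference was −0.896 points, and −0.183 per kb of coding length. The causes of these shifts were not tested. Gja4 and Gjc1 were at 1.72 and −0.482 with the block. The highest count in a library was 84 for Gja4 and 34 for Gja5, the lowest of the 9 connexins, and a count of 0 allows 3 counts.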

Other observations

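Panx2, a channel gene of neurons, had 182 CPM in IP 1, against 33.6 and 44.3 CPM in IP 3 and IP 4 and 42.7 to 61.0 CPM in the 4 Inputs. Gja1, Gjb2 and Gjb6 had their lowest IP value in that library. Gja3 had 30, 76 and 14 counts in Inputs 2, 3 and 4 and 0 counts in each IP library and in Input 1.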
